A study of Homo sapiens with 28 samples.

Results

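The genes described here make nucleotides, serine and one-carbon units. The 33 members were taken by symbol from a list that follows textbook pathways, out of 19775 genes measured by a probe set that names 1 gene, and each gene was read by its brightest probe set. Of the 33, 32 had such a probe set, ADSS was not analysed here, and 29 passed the filter on low signal (mean log2 signal of at least 3.68, a signal of 12.8) and were tested among 11865 genes. The 3 members under the filter were SHMT1, MTHFD1L and ALDH1L2, a cytosolic and 2 mitochondrial folate enzymes. Their signals of 0.5 to 14.1, 0.7 to 10.9 and 0.5 to 12.6 over all arrays were too low to read a change.

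RNA came from derivatives of SK-N-AS, an established human neuroblastoma cell line, and was hybridised to 28 Affymetrix arrays. In the MYCN line a tetracycline-controlled MYCN gene is switched on by doxycycline, and 3 arrays were made at each of the times labelled 0, 4, 8, 24, 48, 96 and 192, a scale whose unit the labels do not give. The mock line carries the pcDNA6TR vector, was also harvested after doxycycline, and has a single array per time for the same 7 labels. The comparisons address what changes after MYCN is switched on, and whether the mock line changes likewise. The labels do not say how many clones the MYCN line comes from, nor that the arrays of a time stand for separate cultures. The p-values rest on a spread between samples that may be technical. In such bulk RNA, fewer cells of a kind and less RNA per cell cannot be told apart.

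De novo purine synthesis builds the purine ring on a ribose phosphate in a chain of steps that ends at IMP, from which separate branches lead to AMP and GMP. Pyrimidine synthesis builds the ring first and then joins it to the sugar, and thymidylate synthase adds a folate-borne carbon to make the DNA base. Serine, made from a glycolytic intermediate, feeds carbon units into the folate cycle of mitochondria and cytosol, and these units are used in purine and thymidylate synthesis. MYC proteins are known to bind E-boxes, and several genes of nucleotide synthesis are known MYC targets.

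Because the bound element is known, the start regions of the members were searched in RefSeq windows (GRCh38.p14; 250 bases before to 50 after each start) for the canonical E-box CACGTG and its variant CACGCG on both strands. Matches of these 2 motifs cannot share a base, and they were counted separately. Windows were matched for 27 of the 33 members, the others being ADSL, IMPDH2, SHMT2, ALDH1L2, SLC25A32 and PSPH. Of these members 24 were tested for expression. CACGTG was found in 6 of the 24 (25%: ATIC, PPAT, PAICS, MTHFD1, DHODH and SLC19A1), against 12.9% of the 9731 tested genes with a window and 7.26% of all 35116 windows. PPAT and PAICS share the same copy, which is counted for each of them. The last share is over windows and not over genes, which can have several. CACGCG was found in 7 of the 24 (29.2%), against 22.5% of tested genes with a window. TGATGCA, part of the amino acid response element, was found in 1 (PHGDH, 4.17%), against 2.20%. Any of the E2F cores (the letters TTGGCGC, or else TTCCCGC, or else TTGCCGC, or else TTCGCGC) was found in 7 (29.2%), against 24.7%. Of the untested members, MTHFD1L held CACGTG and TGATGCA in some but not all of its 4 windows, which share the same copy of each. A match is a description of these letters and not a measured binding site. The stretches below are shown because they hold such a match next to a member described with its values later on, including MTHFD1, whose difference from time 0 did not pass the test at any time. Each is the plus strand, 5′ to 3′, of the bases upstream of a start (ATIC chr2:215311809-215312058, DHODH chr16:72008494-72008743, MTHFD1 chr14:64388103-64388352, MTHFD2 chr2:74198365-74198614), with the motif in capitals. The motif lies 46 bases before the start in ATIC, 159 in DHODH, 15 in MTHFD1 and 24 in MTHFD2. In MTHFD2 the capitals mark CACGCG as read on the minus strand. The ATIC stretch overlaps the annotated non-coding gene LOC124907975. The last is the 30-base site chr4:56435780-56435809, which holds the E-box that the windows of PPAT and PAICS share. These 2 genes are read in opposite directions from RefSeq starts 137 bases apart, and the site lies within the annotated PAICS gene. The E-box lies 182 bases before the PPAT start and at position 41 of PAICS.
ATIC: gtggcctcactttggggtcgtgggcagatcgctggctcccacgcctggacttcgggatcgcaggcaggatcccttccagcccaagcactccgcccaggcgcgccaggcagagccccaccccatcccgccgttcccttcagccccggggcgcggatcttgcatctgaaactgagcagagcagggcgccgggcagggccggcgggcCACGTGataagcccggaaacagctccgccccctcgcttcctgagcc
DHODH: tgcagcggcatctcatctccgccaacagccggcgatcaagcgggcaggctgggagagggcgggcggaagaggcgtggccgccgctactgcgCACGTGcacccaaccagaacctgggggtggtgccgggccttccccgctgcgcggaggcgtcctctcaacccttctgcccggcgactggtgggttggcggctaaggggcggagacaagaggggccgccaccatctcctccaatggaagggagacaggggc
MTHFD1: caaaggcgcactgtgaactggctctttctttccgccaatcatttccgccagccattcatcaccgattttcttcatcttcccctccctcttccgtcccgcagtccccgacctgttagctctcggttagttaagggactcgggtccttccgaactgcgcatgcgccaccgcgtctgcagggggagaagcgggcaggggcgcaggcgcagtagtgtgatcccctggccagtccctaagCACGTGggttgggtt
MTHFD2: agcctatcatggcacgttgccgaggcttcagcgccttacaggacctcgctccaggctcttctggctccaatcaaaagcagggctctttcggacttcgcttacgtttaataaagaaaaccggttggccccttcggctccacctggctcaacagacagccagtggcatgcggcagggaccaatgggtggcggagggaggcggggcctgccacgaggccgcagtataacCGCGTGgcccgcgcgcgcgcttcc
PPAT and PAICS: ctgtatttgctgCACGTGgaaatctccgtt

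MYCN, the induced gene, read 84 ± 17.5 (SD, n = 3) at time 0 in the MYCN line, 2168 ± 820 at time 4 and 3193 ± 112 at time 192. The mock arrays read 1.6 to 3. MYCN rose by 4.65 (log2 difference, SE 0.17) at time 4, with an adjusted p = 7.76e-13 in limma, and MYC, the relative these cells express, fell by 2.04 at time 48 (SE 0.48, adjusted p = 0.00731). In the MYCN line at time 0 the mesenchymal markers VIM, FN1 and PRRX1 read 5932 ± 339, 2163 ± 170 and 861 ± 70.7, and FOSL1, SNAI2 and YAP1 read 239 ± 88.4, 219 ± 35.2 and 810 ± 6.47. Of the 9 adrenergic markers listed, 8 were measured. TH, DBH and PHOX2A were near 0 there, at 1.1 ± 0.436, 2.63 ± 2.27 and 4.37 ± 5.31, whereas HAND2, CHGA, GATA2, ISL1 and GATA3 read 32.8 ± 13.1, 72.8 ± 52.4, 93.5 ± 15, 154 ± 24.6 and 300 ± 44.6. The mock array of time 0 was higher than the MYCN-line mean for 7 of these 8, all but TH, with PHOX2A at 768 and GATA3 at 876.6, and FN1 read 240.2 on it. At time 192, 2 of 6 tested adrenergic markers rose (GATA2 and GATA3) and 2 fell (CHGA and ISL1). Of 6 tested mesenchymal markers FOSL1 rose and FN1 and PRRX1 fell, by limma. Of all genes tested 11.6% were higher and 14.1% lower at that time. PRRX1 fell by 0.58 in the MYCN line, and was 0.77 lower on the mock array of time 192 than at time 0. Its trend did not differ between lines (-0.019 per step, limma adjusted p = 0.833). On that mock array FN1 was 0.63 higher and FOSL1 0.24 lower. FN1 read 274 ± 34.1 at time 192, against 2163 ± 170 at time 0, and FOSL1 821 ± 296, against 239 ± 88.4. SOX10 and S100B, of Schwann cells, read 0.4 to 12.3 at times 0 and 192. The leukocyte gene PTPRC read 21 ± 12.6 at time 0 in the MYCN line, against 262.2 in the mock line. PTPRC fell to 2.77 ± 1.7 at time 192 in the MYCN line (limma adjusted p = 0.00274). CD3E, the other leukocyte gene measured, was low in both lines and was not tested. At time 0 CD3E read 5.03 ± 2.9 on the MYCN-line arrays and 7.8 on the mock array. Over all mock arrays CD3E ranged from 3.7 to 15.9. The part of these markers in the results was not tested. The spiked control bioD read 1544 to 1941 in the MYCN line's replicates 1 and 2, whereas its replicate 3 and the mock line read 2322 to 2770. These sets are called batch 1 and batch 2, although the labels name no batch. The mock array of time 192 stands apart from the other mock arrays, with a median correlation of 0.964 against 0.980 to 0.983 for the others. Against the mock array of time 0, 6.14% of genes differed by 2-fold or more on it, and 2.21% to 2.64% on the mock arrays of times 4 to 96.

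After MYCN induction, genes of purine synthesis and of folate use rose, with DHODH, CAD and PSAT1 among the other roles, and IMPDH2 fell. The 12 members that rose by time 192 were 1.15- to 1.78-fold higher than at time 0. At time 4, 0 of the 29 members passed limma's test, and 0.00843% of all genes tested did, which is MYCN alone; 778 of the 11865 genes had an unadjusted p under 0.05. At time 8 a single member rose, PPAT (0.59% of all genes were higher). By time 24, 5 members rose (PPAT, PFAS, PAICS, MTHFD2 and SLC19A1) and IMPDH2 fell, where 3.91% of all genes were higher and 3.27% lower, 7.18% in all. At time 48, 9 rose and 1 fell (7.04% and 7.67% of all genes, 14.7% in all), with ATIC, DHODH, SHMT2 and SLC25A32 added. At time 96, 11 rose and 1 fell (10.3% and 13.2% of all genes, 23.4% in all), with ADSL and PSAT1 added, and at time 192, 12 rose and 1 fell (11.6% and 14.1%, 25.8% in all), with CAD added. The medians of the 29 log2 differences were 0.05, 0.04, 0.15, 0.25, 0.26 and 0.25 at times 4 to 192, where the median of all genes was -0.02 to -0.03. The medians in the single mock arrays were 0.10, 0.02, 0.01, -0.08, -0.02 and -0.34. All 6 comparisons share the 3 arrays of time 0. Of the members, 13 passed the F-test over the 6 times, and 25.4% of all genes did. Without replicate 2 the members called numbered 1, 1, 5 and 7 at times 24, 48, 96 and 192, where 1.38%, 2.03%, 6.63% and 11.2% of all genes were called. Without replicate 1 they were 3, 5, 7 and 10 (1.64%, 3.03%, 12.2% and 13%). Without replicate 3 they were 6, 15, 14 and 17 (5.53%, 18.3%, 23.5% and 25%). Blocking on replicate, 18 members were called at time 192 (16 up, 2 down), and 35.1% of all genes. With equal array medians 8 members were called at time 192 (15.9% of all genes), and 6 of the 13 calls were lost: ADSL, ATIC, PAICS (0.45, adjusted p = 0.11), IMPDH2, SHMT2 and SLC25A32 (0.48, adjusted p = 0.121).

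By role at time 192, where 11.6% of all genes were higher and 14.1% lower, purine synthesis had 5 of 9 tested members higher and 1 lower, with a median difference of 0.35. Folate and one-carbon genes had 4 of 6 higher (median 0.41). Pyrimidine and thymidylate synthesis had 2 of 7 higher (0.08), serine synthesis 1 of 3 (0.05), and salvage and breakdown 0 of 4 (0.14). With the replicate block, where 35.1% of all genes were called in either direction, purine synthesis had 7 higher and 1 lower. Salvage and breakdown had 2 higher (NT5E and APRT) and 1 lower (ADA), and the other counts were as before. These are counts within a list chosen with results known, and roles were not tested against each other. Between times 48 and 192, 0 members passed the test (0.219% of all genes were higher and 0.548% lower, 0.767% in all, and 1560 of the 11865 genes had an unadjusted p under 0.05). The median difference of the members between those times was 0.02. PSAT1 was 0.45 higher at time 192 than at time 48, which did not pass (adjusted p = 0.113) but did with the replicate number as a block (adjusted p = 0.0408), where 4.47% of all genes did.

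**Figure D1:**
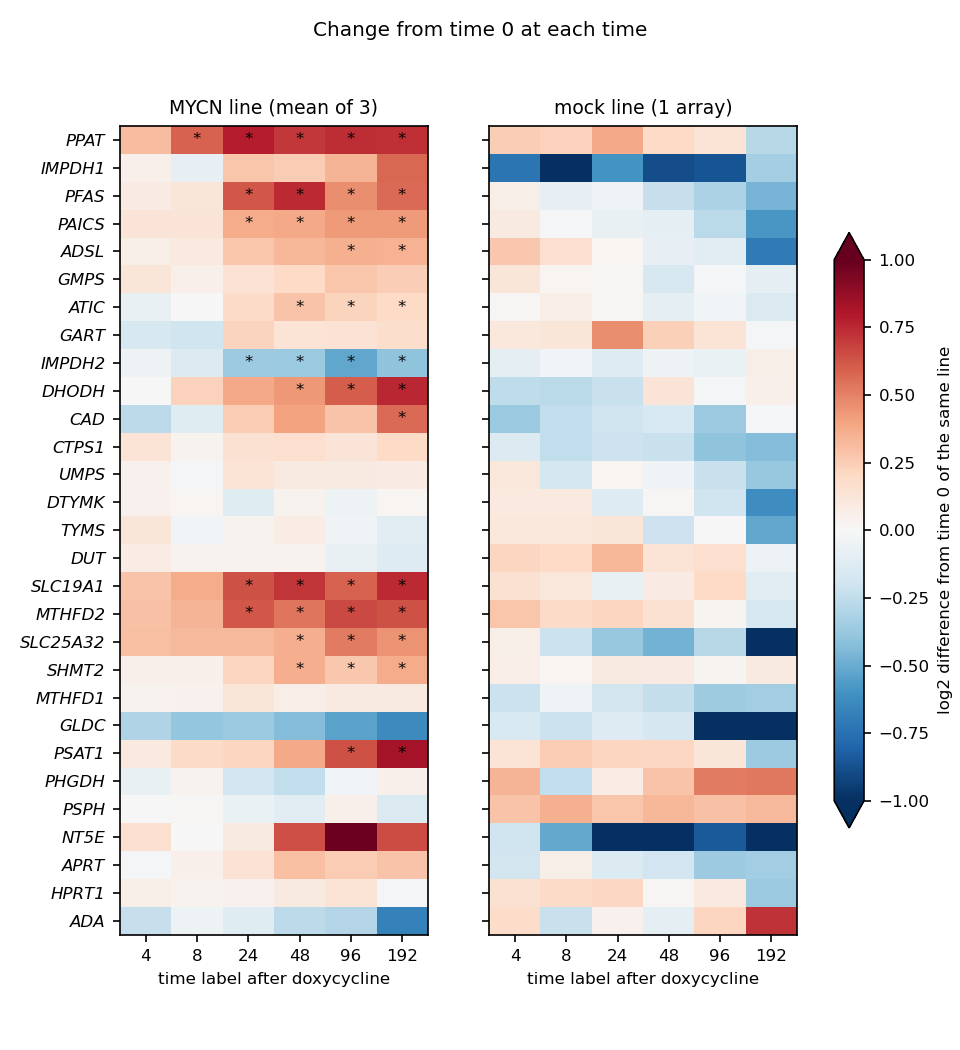
Log2 difference from time 0 in the MYCN line (left, mean of 3 arrays) and in the single mock arrays (right), for the 29 tested members grouped by role, at times 4 to 192. Stars mark members past the threshold in the MYCN line. On the mock array of time 192, 23 of the 29 members lie below time 0, with a median of -0.34.

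PPAT, which catalyses the committed step of purine synthesis, was the first member to pass the test. At times 0, 4, 8, 24, 48, 96 and 192 its mean signal was 192 ± 13.1, 239 ± 21.3, 289 ± 19.8, 332 ± 16.1, 316 ± 40.3, 323 ± 43.8 and 320 ± 39.5 (SD, n = 3 each). At time 8 the arrays read 274.6, 281 and 311.6, against 203, 196.5 and 177.8 at time 0, with no overlap. The difference was 0.59 (SE 0.12, limma adjusted p = 0.0251), and 0.73 at time 192 (adjusted p = 0.000172). The mock arrays ranged over 149.2 to 235.7, with the time 192 array lowest and 0.28 under time 0. The call of time 8 was lost without either the time 0 array of replicate 3 (0.53, adjusted p = 0.102) or any 1 of the time 8 arrays (0.53 to 0.62, adjusted p = 0.066 to 0.113). It was also lost without replicate 1, 2 or 3, with equal array medians, and with only the arrays of the 2 times. The mean of all probe sets ended it as well. At time 4 PPAT, SLC25A32, MTHFD2 and SLC19A1 differed by 0.31, 0.30, 0.29 and 0.28, and none passed. With the replicate number as a block, 3 members and 2.36% of all genes were called at time 8: PPAT, MTHFD2 (0.34, adjusted p = 0.00363) and SLC25A32 (0.33, adjusted p = 0.0425).

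PFAS, which acts further down the same chain, had its highest mean at time 48. Its arrays read 408, 521.3 and 470.2 at time 48, and 410.9, 404.5 and 415.1 at time 192, against 262.6, 263.3 and 309 at time 0. All arrays of both times lay above all of time 0. PFAS rose by 0.74 (SE 0.11, limma adjusted p = 0.000175) at time 48. At time 192 it was up by 0.56 (adjusted p = 0.000806). Without replicate 2 its calls at times 24 (0.65, adjusted p = 0.0538), 48 (0.62, adjusted p = 0.0512) and 96 (0.42, adjusted p = 0.107) were lost, and without replicate 1 that at time 96 (0.41, adjusted p = 0.0654). In the mock line it read 144.7 at time 192 and 200 at time 0, below every array of the MYCN line.

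IMPDH2, which takes IMP toward GMP, was the single member that fell in the fit without the replicate block. With the block ADA fell as well at time 192 (-0.67, limma adjusted p = 0.0189). IMPDH2 read 1123, 1355 and 1133 at time 192, against 1575, 1606.3 and 1579.3 at time 0. Its mean at times 0, 8, 24, 96 and 192 was 1587 ± 17, 1444 ± 58.2, 1239 ± 98.4, 1113 ± 130 and 1204 ± 131. It fell by 0.36, 0.37, 0.52 and 0.40 at times 24, 48, 96 and 192 (SE 0.09 each, limma adjusted p = 0.018, 0.00852, 0.000381 and 0.00247), and all arrays of these times lay below those of time 0. The mock arrays read 1460 to 1661. The call at time 192 was lost without replicate 1 (-0.36, adjusted p = 0.0686) and with equal array medians (-0.38, adjusted p = 0.0558). Those at times 24 and 48 were lost with equal array medians (adjusted p = 0.259 and 0.156), without replicate 1 (0.194 and 0.204), without replicate 2 (0.236 and 0.11), and without some single arrays. Its paralog IMPDH1, which makes the same conversion, read 148.1, 124.5 and 167.5 at time 192, against 122.1, 66.9 and 114 at time 0. That difference of 0.58 (95% interval 0.07 to 1.09) did not pass over all genes (adjusted p = 0.0828) and did with the replicate block (adjusted p = 0.0262). The mock array of time 0, at 190.6, was higher than all of these IMPDH1 values. IMPDH2 is read by a probe set of the _s_at or _x_at kind alone, which can match several transcripts.

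**Figure D2:**
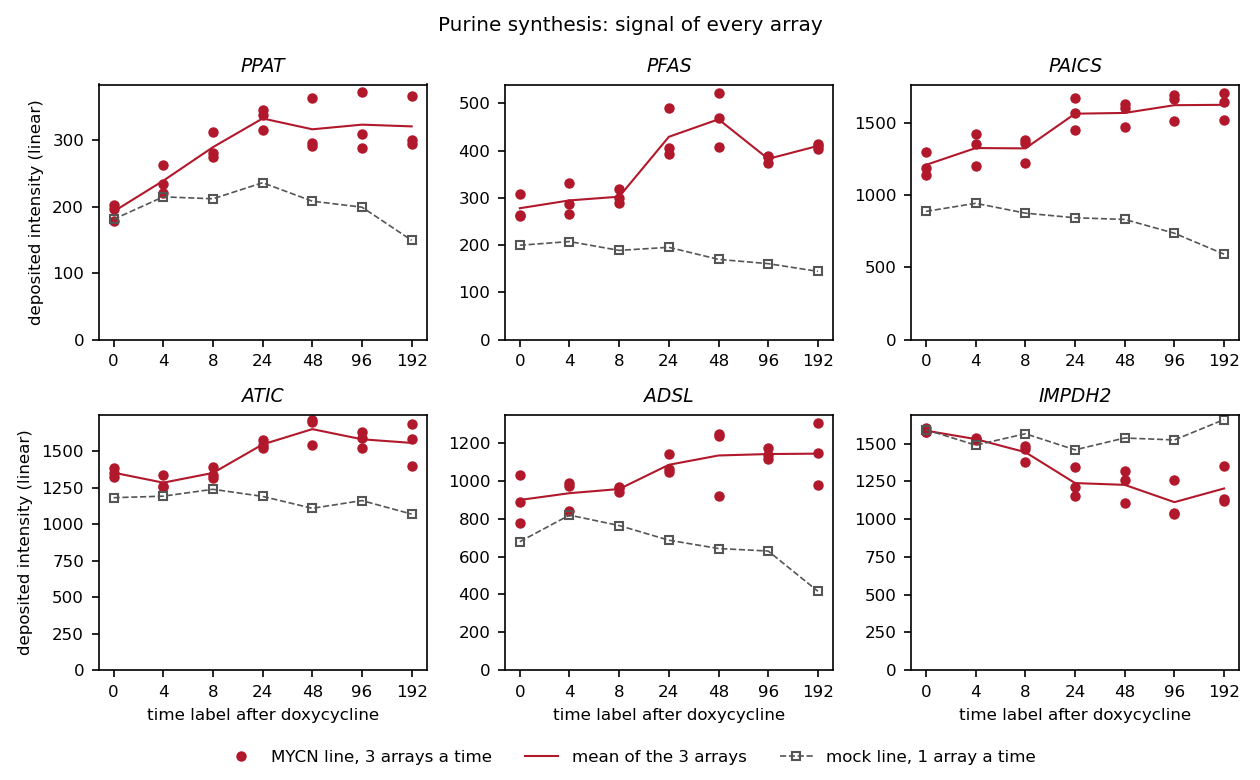
Signal of 6 purine synthesis genes on each array over the 7 times, on a linear axis from 0 (MYCN line, 3 arrays a time with their mean, and the mock line, 1 array a time). PPAT, PFAS and PAICS lie above all their time 0 arrays from time 24, and IMPDH2 lies below.

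Among the other purine genes, PAICS, an enzyme of the middle of the chain, rose by 0.43 (SE 0.08, limma adjusted p = 0.000803) at time 192, with arrays at 1709.3, 1642.7 and 1522.1, against 1300.4, 1137.8 and 1189.6 at time 0. ADSL, which acts both in the chain and in the AMP branch, rose by 0.35 (adjusted p = 0.0385), and ATIC, which closes the ring, by 0.20 (adjusted p = 0.0370). These 2 calls did not hold when single arrays were left out. ADSL was lost without any of 4 single arrays (time 0 replicate 2 or 3, time 192 replicate 1 or 2; 0.25 to 0.34, adjusted p = 0.0874 to 0.184), as was ATIC (the same 4 arrays; 0.14 to 0.20, adjusted p = 0.0818 to 0.193). PAICS was lost without replicate 2 (0.38, adjusted p = 0.0602). GMPS, which makes GMP, differed by 0.25 (adjusted p = 0.125, and 0.00462 with the replicate block). GART, a multi-step enzyme of the chain, passed the F-test (adjusted p = 0.00544) with means of 1453 ± 151 at time 0, 1271 ± 164 at time 8 and 1694 ± 94.2 at time 24. Its difference of 0.18 at time 192 did not pass (adjusted p = 0.178). Without the _s_at and _x_at probe sets, PPAT and PAICS are read by probe sets with geometric mean signals of 19.6 and 17.8, and their differences at time 192 become -0.0012 and -0.30, neither called. Their other _s_at probe sets gave 0.65 and 0.27.

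Of pyrimidine synthesis, DHODH, the mitochondrial enzyme that oxidises dihydroorotate, passed the test from time 48 on. Its mean at times 0, 8, 48, 96 and 192 was 74.5 ± 10.6, 86.8 ± 4.15, 100.1 ± 11, 113 ± 14.5 and 125 ± 7.43. The time 192 arrays read 121.9, 133.2 and 119.2, against 68.7, 68 and 86.7 at time 0. DHODH rose by 0.75 at time 192 (SE 0.13, limma adjusted p = 0.000321), and its mock arrays stayed within 48 to 63.4. Its call at time 48 was lost with equal array medians (0.48, adjusted p = 0.0564), without replicate 1 (0.46, adjusted p = 0.222) or 2 (0.29, adjusted p = 0.423), and without any of 4 single arrays (adjusted p = 0.053 to 0.153), and that at time 96 without replicate 1 (0.55, adjusted p = 0.0773). CAD, the enzyme of the first steps, read 964.3, 906.3 and 1219.4 at time 192, against 624.1, 641.5 and 816.4 at time 0, and rose by 0.57 (SE 0.16, adjusted p = 0.0126). Its call was lost without the time 0 array of replicate 1 (0.50, adjusted p = 0.0535) or 2 (0.52, adjusted p = 0.0517), or the time 192 array of replicate 3 (0.44, adjusted p = 0.0681). The CAD call was also lost without replicate 1, without replicate 2, and with the mean of all probe sets. TYMS, thymidylate synthase, read 3334.9, 3499.5 and 3161.8 at time 192, against 3628.7, 3717.1 and 3400.9 at time 0, a difference of -0.10 (95% interval -0.24 to 0.03, adjusted p = 0.229) with overlapping arrays. The end steps toward DNA precursors and CTP did not pass either: DUT, which breaks down dUTP, differed by -0.13 (interval -0.28 to 0.03), DTYMK, thymidylate kinase, by 0.02 (-0.16 to 0.20), UMPS, which makes UMP, by 0.08 (-0.12 to 0.28) and CTPS1, CTP synthase, by 0.20 (-0.06 to 0.46).

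Of the folate genes, MTHFD2, the mitochondrial dehydrogenase of the one-carbon cycle, passed the test from time 24 on. Its arrays read 2354.3, 2355.8 and 2124.6 at time 192, against 1658, 1440.1 and 1312.9 at time 0, with no overlap. Its means at times 0, 4, 8, 24, 48 and 192 were 1470 ± 175, 1796 ± 143, 1862 ± 169, 2252 ± 202, 2130 ± 246 and 2278 ± 133. MTHFD2 rose by 0.62 at time 24 (SE 0.10, adjusted p = 0.000558 in limma). At time 192 the rise was 0.64 (adjusted p = 9.74e-05), while the mock line read 685.1 at time 192 and 765.9 at time 0. The calls of MTHFD2 at times 24 and 48 were lost with equal array medians (adjusted p = 0.0772 and 0.0765) and without replicate 2 (adjusted p = 0.0741 and 0.0783). SHMT2, which splits serine into glycine and a folate-bound carbon in mitochondria, read 1340.3, 1241.6 and 1275.5 at time 192, against 1044.1, 962.2 and 976.7 at time 0. SHMT2 rose by 0.37 (SE 0.07, adjusted p = 0.00093), a call lost with equal array medians (0.40, adjusted p = 0.055). Its calls at times 48 and 96 were lost with equal array medians (adjusted p = 0.0746 and 0.17) and without replicate 2 (adjusted p = 0.0965 and 0.0932), and that at time 96 also without replicate 1 or 3 (adjusted p = 0.0606 and 0.105). The 2 transporters rose as well. SLC19A1, the reduced folate carrier of the cell surface, read 345, 401.1 and 447.7 at time 192, against 246, 229.7 and 231.7 at time 0, up by 0.75 (SE 0.15, adjusted p = 0.000919). SLC25A32, which carries folate into mitochondria, read 952.9, 1014.8 and 851.4 at time 192, against 808.9, 588.5 and 678 at time 0, up by 0.45 (SE 0.11, adjusted p = 0.00596). All arrays of time 192 lay above those of time 0 for these 4 genes. Without replicate 2 the calls of SLC19A1 (0.72, adjusted p = 0.0553) and SLC25A32 (0.28, adjusted p = 0.259) were lost.

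**Figure D3:**
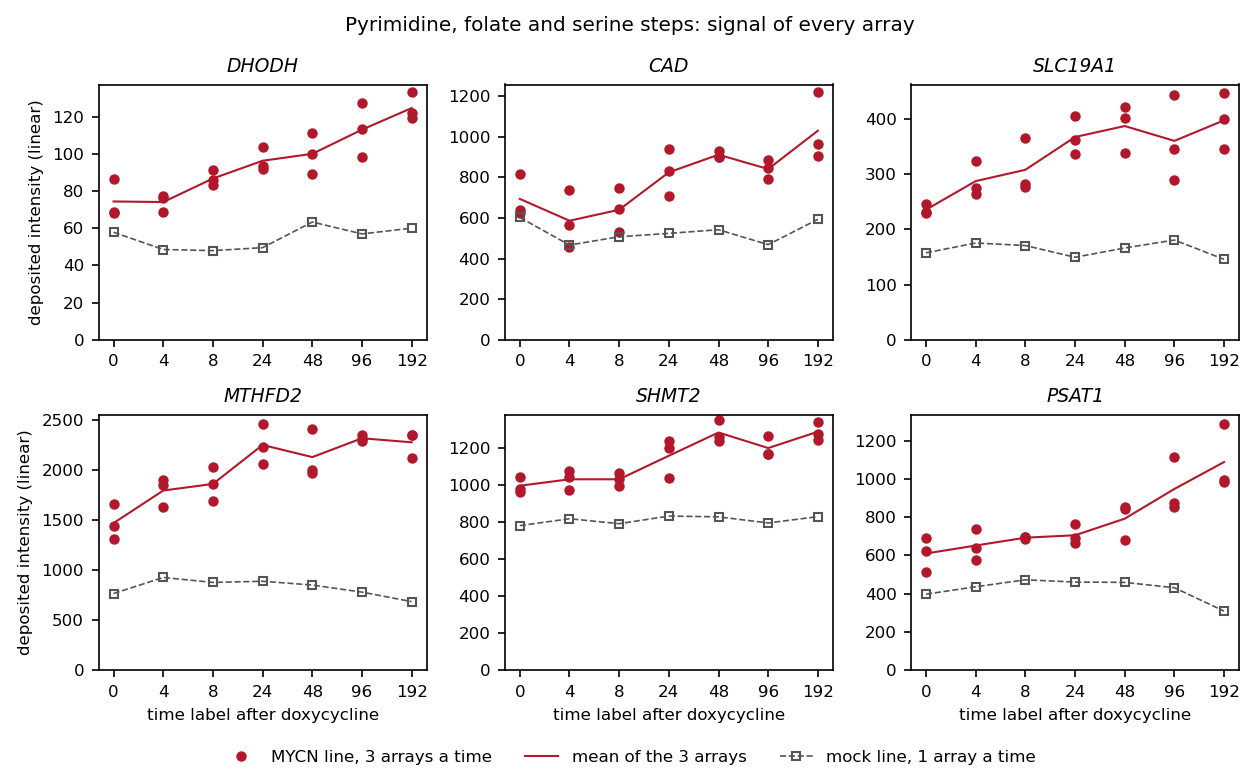
Signal of 6 pyrimidine, folate and serine genes on each array over the 7 times, on a linear axis from 0 (MYCN line, 3 arrays a time with their mean, and the mock line, 1 array a time). MTHFD2 and SLC19A1 lie above all their time 0 arrays from time 24, and PSAT1 climbs to time 192, where its mean is 1088.

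The cytosolic enzyme of the cycle, MTHFD1, read 1842.1, 1870.1 and 1991.4 at time 192, against 1749.7, 1705.7 and 1917.8 at time 0, a difference of 0.09 (95% interval -0.11 to 0.29, limma adjusted p = 0.544). GLDC, of the glycine cleavage system, is dim, at 27.5, 25.4 and 33.3 at time 192, against 48.9, 60.6 and 29.4 at time 0. Its difference of -0.64 had an interval of -1.30 to 0.03 and did not pass (adjusted p = 0.143), and without the time 0 array of replicate 3 it was -0.93 and passed (adjusted p = 0.0443). With the _s_at and _x_at probe sets left out, SLC19A1 differed by -0.17 at time 192, against 0.75 with its brightest probe set, and was not called. Of its 6 other probe sets 5 were above 0 at that time, at 0.28 to 0.97.

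Of the 3 serine synthesis genes 1 passed the test, PSAT1, its transaminase, at times 96 and 192. PSAT1 read 1285.3, 994.6 and 982.7 at time 192, against 689.4, 624.1 and 514.8 at time 0. Its means at times 0, 24, 48, 96 and 192 were 609 ± 88.2, 705 ± 51.8, 791 ± 95.4, 947 ± 146 and 1088 ± 171. PSAT1 rose by 0.83 at time 192 (SE 0.13, limma adjusted p = 0.000139), the largest called difference among the members at that time. PHGDH, the first enzyme, read 244.7, 119.6 and 140.8 at time 192, against 139.1, 156.5 and 169.9 at time 0. Its difference was 0.05 (95% interval -0.47 to 0.58, adjusted p = 0.908), and the arrays of the 2 times overlapped. PSPH, the last enzyme, read 469.8, 389.6 and 380.3 at time 192, against 449.4, 494.1 and 420.9 at time 0, a difference of -0.14 (interval -0.35 to 0.07, adjusted p = 0.322).

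In the fit to all arrays without the replicate block, salvage and breakdown genes did not pass at any time. NT5E, the cell-surface enzyme that frees adenosine from AMP, read 1280.6, 1209.6 and 771.8 at time 192, against 907.9, 543 and 620.2 at time 0, and 1902.2, 1212.3 and 508.8 at time 48. Replicate 3 was the lowest of its time from time 4 on. The difference at time 192 was 0.66 (95% interval -0.14 to 1.45, limma adjusted p = 0.212), and it passed with the replicate block (adjusted p = 0.0211). ADA, which deaminates adenosine, read 112.2, 117.7 and 115.7 at time 192, against 170.2, 194.3 and 187.3 at time 0, with no overlap. Its difference of -0.67 (interval -1.20 to -0.14) just missed the threshold (adjusted p = 0.0513, and 0.0189 with the replicate block), and an equally bright probe set of ADA gave -0.03. APRT, which salvages adenine, read 243.9, 323 and 259.1 at time 192, against 201.3, 216.5 and 258 at time 0, a difference of 0.29 (adjusted p = 0.0971, and 0.0461 with the block). HPRT1, which salvages hypoxanthine and guanine, read 1550.3, 1608.7 and 1453 at time 192, against 1640, 1553.3 and 1451.4 at time 0, a difference of -0.01 (interval -0.19 to 0.17, adjusted p = 0.951).

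**Figure D4:**
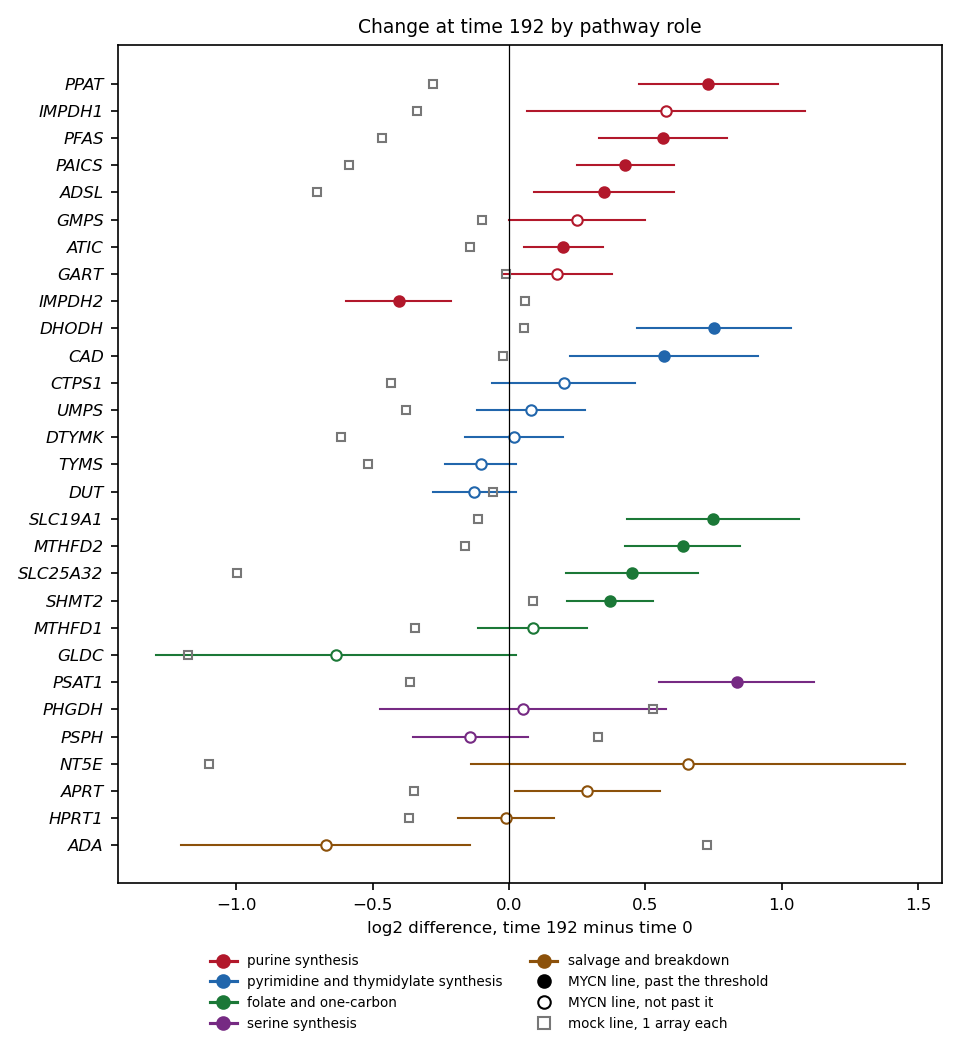
Log2 difference of time 192 from time 0 in the MYCN line for the 29 tested members by role, with 95% intervals from the fit (not adjusted for many genes), and the difference of the single mock arrays as open symbols. The 13 called members run from -0.40 (IMPDH2) to 0.83 (PSAT1).

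In the mock line 0 members rose and 2 fell over the course, NT5E and SLC25A32 (1.61% of all genes rose and 1.52% fell over the 7 mock arrays, 3.13% in all). NT5E read 295, 257.3, 207.3, 133.5, 133.7, 165 and 137.7 at times 0 to 192, a trend of -0.19 per time step (SE 0.04, limma adjusted p = 0.0379). SLC25A32 read 602.8, 626.2, 520.5, 464.1, 434.1, 496.3 and 301.7, a trend of -0.14 (SE 0.03, adjusted p = 0.0364). A time step is 1 interval of the series of 7 times, counted 0 to 6. The NT5E call was lost without any 1 of the arrays of times 0, 4, 8 and 48 (adjusted p = 0.0537 to 0.145), and the SLC25A32 call without any 1 of those of times 4, 8, 24, 48 and 192 (adjusted p = 0.0549 to 0.143).

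Between the lines, the trend was higher in the MYCN line for 17 of the 29 members and lower for 2, where 11.2% of all genes were higher and 12.8% lower, 24% in all. NT5E (0.34 per step, SE 0.09, limma adjusted p = 0.00714), SLC25A32 (0.21, SE 0.03, adjusted p = 7.29e-05) and PFAS (0.19, SE 0.04, adjusted p = 0.000779) differed most upward, and IMPDH2 (-0.093, SE 0.024, adjusted p = 0.00555) and ADA (-0.17, SE 0.063, adjusted p = 0.0475) downward. For NT5E and SLC25A32 both lines moved: their trends in the MYCN line were 0.15 and 0.065 per step. DTYMK, CTPS1, UMPS and MTHFD1 had mock trends of -0.091, -0.065, -0.060 and -0.054. Their MYCN-line trends were smaller, at -0.0041, 0.025, 0.016 and 0.014, and not called. ADSL and PAICS fell more steeply in the mock line (-0.11 and -0.091) than they rose after induction (0.066 and 0.075). A mock trend was called for NT5E and SLC25A32 alone. The MYCN line had the steeper trend for PFAS, PPAT, PSAT1, MTHFD2, SLC19A1, DHODH, ATIC, SHMT2 and IMPDH2. The count of members called leaned on the mock array of time 192, on which the median member was 0.34 lower than at time 0. Without that array 6 members were called (ADSL, APRT, NT5E, PAICS, PFAS and SLC25A32, all higher), where 10.9% of all genes were called. Without all arrays of time 192, 9 were called (8 higher, 1 lower, 12.3% of all genes), and within the batch that holds replicate 3 and the mock line, 11 (10 higher, 1 lower, 16.5% of all genes). The test fits a straight line over time steps. MYCN itself did not pass it (0.59 per step, SE 0.27, limma adjusted p = 0.112), although it was 5.27 higher at time 192 than at time 0 in the MYCN line. A gene without a call can thus still differ between the lines.

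**Figure D5:**
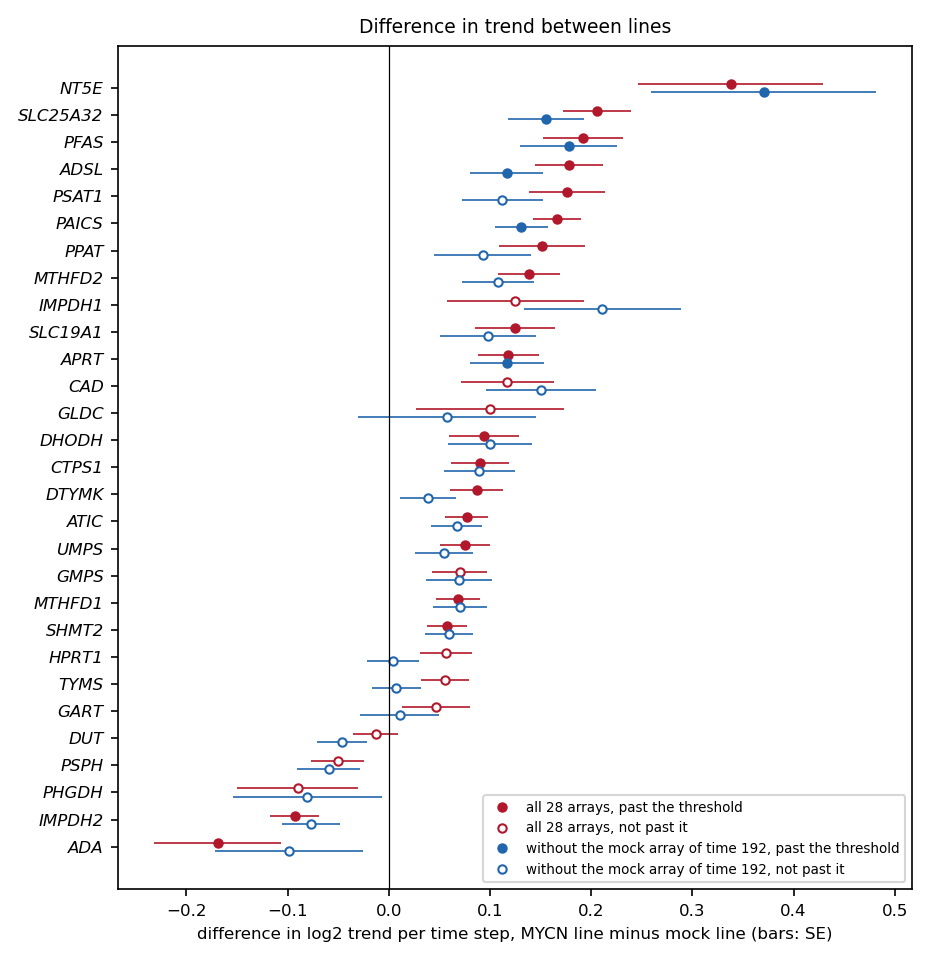
Difference in trend between the MYCN line and the mock line for the tested members, in log2 per time step with bars of 1 SE, over all 28 arrays and again without the mock array of time 192. NT5E is at 0.34 with that array and 0.37 without it, and 21 of the 29 members lie nearer 0 without it.

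At time 0, before induction, all 3 MYCN-line arrays lay above the mock array for 20 of the 29 members (69.0%), against 33.1% of all genes tested. All 3 lay below it for 2 members (IMPDH1 and PSPH, 6.90%), against 33.4% of all genes tested. The median difference was 0.29 over members and -0.01 over all genes. GART read 1453 ± 151 (SD, n = 3) in the MYCN line, against 704.5 in the mock line, MTHFD2 1470 ± 175 against 765.9, and NT5E 690 ± 192 against 295. With 1 mock array at that time this was not tested, and the batches overlap the lines in part. Replicate 3 of the MYCN line, in the same batch as the mock line, read 1282.7, 1312.9 and 620.2 for these 3 genes. MYCN itself read 69.4 to 103.4 in the MYCN line at time 0, against 2.3 in the mock line.

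Other genes of these pathways, from a list of 62 of which 52 were tested, went both ways: 10 rose and 9 fell at time 192 (11.6% and 14.1% of all genes did), with a median of -0.05. The 4 largest increases were SLC29A1, a nucleoside transporter (1.46, SE 0.16, limma adjusted p = 2.75e-06; mean signal 411 at time 192, against 153 at time 0), UPP1, uridine phosphorylase (1.01, SE 0.28, adjusted p = 0.0106), AK4, a mitochondrial adenylate kinase family member (0.80, SE 0.23, adjusted p = 0.0126) and PNP, purine nucleoside phosphorylase (0.59, SE 0.16, adjusted p = 0.00912). The 4 largest decreases were CMPK2, a mitochondrial nucleotide kinase (-1.60, SE 0.17, adjusted p = 1.59e-06; 55.7 at time 192, against 167.5 at time 0), AMT, of the glycine cleavage system (-1.36, SE 0.28, adjusted p = 0.00125), CTPS2, the second CTP synthase (-0.69, SE 0.21, adjusted p = 0.0216) and TK2, mitochondrial thymidine kinase (-0.54, SE 0.19, adjusted p = 0.0441). Of 13 tested S phase genes CCNE1 rose (0.67, adjusted p = 0.000245) and TOP2A fell (a difference of -0.21, adjusted p = 0.0265) at time 192, with a median of -0.06; 2 of 13 is under the 25.8% of all genes called. Of 8 tested genes of the ATF4 response, which also drives serine synthesis genes, 3 rose at time 192 (against 11.6% of all genes; TRIB3 by 1.0, CEBPB 0.56 and XPOT 0.49; limma adjusted p = 2.51e-05, 0.00159 and 8.03e-05), with a median of 0.52, where the median in the mock array was 0.28. ATF4 itself differed by -0.07 (limma adjusted p = 0.740). ASNS, SESN2, DDIT4 and DDIT3 differed by 0.29, 0.33, 0.55 and 0.57 and were not called. On the mock array of time 192, TRIB3 and CEBPB were 0.55 and 0.45 higher than at time 0, and XPOT 0.29 lower. The difference in trend between lines passed for TRIB3 and XPOT and not for CEBPB (limma adjusted p = 0.202). Whether either list has a part in the members' changes was not tested.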

How the data were processed

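Gene expression in 2 derivatives of SK-N-AS was read on 28 single-colour Affymetrix arrays (21 MYCN line, 7 mock line). The deposited values are intensity, linear, with 1 value for each probe set on each array. MAS5 and GCOS are named per the submitters' processing notes; their versions were not given in the labels. The mean after trimming 2% at each end, averaged over the 28 arrays and rounded, was 100, and no further normalization was applied. Detection calls were not used here, so changes of dim genes are uncertain, and the number of arrays limits the precision.

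Values at or under 0 (91) were set to 0.1, and log2 was taken of the deposited intensity. The brightest probe set naming 1 gene stood for each gene, and genes under the 40th percentile of mean log2 signal were left out. limma 3.58.1 in R 4.3.3, with an intensity trend in eBayes, fitted time over the 21 arrays of the MYCN line, a trend over the 7 mock arrays, and the line by time step interaction over all 28. Tests were two-sided, and genes with a Benjamini-Hochberg adjusted p under 0.05 over all genes tested were called. limma was tested on simulated data. Replicate numbers, from the titles, were checked as pairs: deviations correlated with those of time 0 at over 0.1 for all 3 numbers at times 4 (0.188 to 0.323), 8 (0.241 to 0.367) and 192 (0.129 to 0.226), which were taken as paired, and not at times 24, 48 and 96. Calls are from fits without a block unless a block is named, also at the times taken as paired. Alternatives changed the filter, scaling, probe set, floor, variance model, batch, pairing and replicates. Per-array values were given for the members of each role with the smallest F-test p (3, or 4 for salvage), those called lower at any time, and those with the 3 most positive or 3 most negative called differences in trend; others are given where a statement turns on them. Other pathway genes named were the 4 largest called changes each way at time 192. Members and lists were chosen with earlier results of these data known.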

Additional observations from a re-analysis of the deposited data

Results flagged for a closer look

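A difference in trend between the lines passed limma's test for 19 members, so the change over time steps differed between the MYCN line and the mock line. In log2 per time step, the trend was higher in the MYCN line by 0.34 for NT5E, 0.21 for SLC25A32, 0.19 for PFAS, 0.18 for ADSL, 0.18 for PSAT1, 0.17 for PAICS, 0.15 for PPAT, 0.14 for MTHFD2 and 0.12 for SLC19A1. It was also higher by 0.12 for APRT, 0.094 for DHODH, 0.090 for CTPS1, 0.087 for DTYMK, 0.077 for ATIC, 0.075 for UMPS, 0.068 for MTHFD1 and 0.058 for SHMT2. The difference was -0.093 for IMPDH2 and -0.17 for ADA. Adjusted p-values over all genes tested ran from 1.53e-05 (PAICS) to 0.0475 (ADA). Because 24% of all genes tested passed the same test, a call alone does not set a member apart, and 13 of the 19 calls did not pass without the mock array of time 192. No group had 4 or more arrays, so single arrays that stand out within a time were not looked for.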

How the results depend on the processing

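The counts of members called were recomputed under each alternative, 1 choice at a time. With equal array medians they were 0, 3, 4, 7 and 8 at times 8, 24, 48, 96 and 192 and 6 by the F-test (0.0843%, 2.46%, 6.94%, 13.1%, 15.9% and 13.8% of all genes). Without the _s_at and _x_at probe sets, which left 24 members tested, they were 0, 2, 4, 4 and 6, 6 by the F-test and 6 in the difference in trend (0.634%, 5.47%, 10.8%, 18%, 20.4%, 20.4% and 18.3% of all genes). With the mean of all probe sets they were 0 at time 8, 12 in the difference in trend and 0 in the mock trend (0.346%, 16.1% and 0.944% of all genes). With only the arrays of the times compared they were 0 at time 8 and 5 at time 48 (0.0253% and 4.58% of all genes). The mock trend had 0 with no filter and 0 with eBayes without trend (0.779% and 0.0253% of all genes). The cause of these moves was not tested, beyond the fewer members or arrays that some settings leave.

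With the replicate block, which pairs arrays of the same number, the counts were 3 at time 8, 11 at time 24 and 1 between times 48 and 192, and 18 at time 192 (2.36%, 14.9%, 4.47% and 35.1% of all genes). With the bioD sets, batch 1 and batch 2, as a block they were 2, 11, 1 and 18 in the same comparisons (1.85%, 13.5%, 3.46% and 33.7% of all genes). Within batch 1, which is the fit without replicate 3, the count at time 8 was 0 (0.177%). At times 48 and 96, where as at time 24 the numbers were not taken as pairs, the replicate block gave 15 and 15 (23.9% and 33.1%). The difference in trend had 11 called within batch 2 and 9 without the arrays of time 192, both alternatives chosen after seeing the data.

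Leaving out a replicate number or single arrays gave 0 to 1 at time 8, 1 to 7 at time 24, 1 to 15 at time 48, 5 to 14 at time 96, 7 to 17 at time 192, 2 to 16 by the F-test, 6 to 20 in the difference in trend and 0 to 4 in the mock trend. The share of all genes called moved as well. Without replicate 2 it was 2.03%, 11.2% and 5.79% at times 48 and 192 and by the F-test (1, 7 and 2 members). Without replicate 3 it was 18.3%, 25% and 24.9% (15, 17 and 16 members). For most single arrays the share is not given here.

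Called values changed sign, and were then not called, in PAICS (-0.087, -0.097, -0.029 and -0.30 at times 24, 48, 96 and 192), PPAT (-0.018 at time 48 and -0.0012 at time 192) and SLC19A1 (-0.17 at time 192) without the _s_at and _x_at probe sets, and in the differences in trend of DTYMK (-0.038) and MTHFD1 (-0.081) with the mean of all probe sets. Of 63 called results of single members, 11 held under every alternative run for them: PFAS, DHODH, MTHFD2 and PSAT1 at time 192, IMPDH2, MTHFD2 and PSAT1 at time 96, and the differences in trend of NT5E, SLC25A32, PFAS and ADSL. PSAT1, IMPDH2, SLC25A32 and ADSL have probe sets of the _s_at or _x_at kind alone. The setting that leaves those kinds out could not be run for them, so their results did not face it. Of 198 results not called, 34 were called under at least 1 alternative. Median signals of the arrays were 12.9 to 20.2, so members near the filter, such as GLDC, are read less surely than the bright ones.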
